A study of Rattus norvegicus with 8 samples.

Results

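Apolipoproteins are the protein coats of the particles that carry fat and cholesterol in blood, and the liver makes most of them. The liver loads triglyceride onto the large protein encoded by Apob with the help of the microsomal triglyceride transfer protein encoded by Mttp, and secretes the product as very low density lipoprotein. The smaller apolipoproteins attach to these particles or to high density lipoprotein, where they activate or inhibit the lipases that unload fat and bind the receptors that clear remnants. The genes described here are these 10: Apoa1, Apoa2, Apoa4, Apoa5, Apob, Apoc1, Apoc2, Apoc3, Apoe and Mttp. They were chosen by function, as every probe whose RefSeq accession belongs to 1 of these rat genes. They are 10 of 25128 features (genes, or single probes with no gene name) tested, and 16 of the 16336 probes on the array that a RefSeq accession names.

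Liver RNA came from male Wistar/ST rats that all ate a high-fat diet and drank fructose-rich water for 5 weeks. The control group (4 arrays) had no other treatment, and the Eucommia group (4 arrays) drank an extract of the leaves of Eucommia ulmoides, a tree whose leaves are brewed as tea. The comparison asks which liver transcripts differ between rats with and without the extract. The labels number 4 samples in each group without saying outright that each is a different rat, so each p-value reflects the spread among samples as labelled, which may be technical. Age and dose are not given in the labels used here.

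Signals are on the log2 scale with each array's 75th percentile set to 0. The 2 groups were hybridised on different slides (slide 1 held the control group, slide 2 the Eucommia group) and scanned apart. Every difference below is therefore also one between slides, and these cannot be told apart. Arrays of a group correlated over features at 0.985 to 0.989 (control) and 0.990 to 0.994 (Eucommia), and arrays of different groups at 0.962 to 0.973. All 12 hepatocyte markers, among them Alb and Ttr, were well above background on all 8 arrays, as the liver label implies. All 16 probes of the 10 genes were well above background on all 8 arrays, with no spot marked as an outlier and none saturated, so the filter on dim probes decided nothing about them. The brightest member, Apoe, reached 318752 scanner units where the scanner saturates at 778343 or 778434. A gene with several probes is given by its brightest probe unless stated otherwise, and 9 of the 10 genes had a mean log2 signal above 8.

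Of the 10 genes, Apoe was lower in the Eucommia group, by 23.3%, and the other 9 did not pass the test. Apoe encodes the apolipoprotein through which remnant particles bind to liver receptors. By limma with Benjamini-Hochberg adjustment over all features, 1 of the 10 was lower (6.24% of all features were) and 0 were higher (18.4% of all features were, and 24.6% passed in either direction). Among the 2118 features at least as bright as Mttp, the dimmest of the 10, the shares were 5.43% lower, 2.46% higher and 7.88% in either direction. At an unadjusted p under 0.05, 2 of the 10 were lower and 0 higher, where 35.8% of all features were below 0.05 in either direction. The median log2 difference (Eucommia minus control) of the 10 was -0.05, against 0.02 over all features and -0.05 over those bright features. A total of 7 of the 10 differences were negative, where 47.6% of all features and 62.1% of those bright features had a negative difference. The share lower was larger among the brightest features: of the 153 features above 8, 15% were lower, 1.31% were higher, 81% had a negative difference and the median difference was -0.13.

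**Figure D1:**
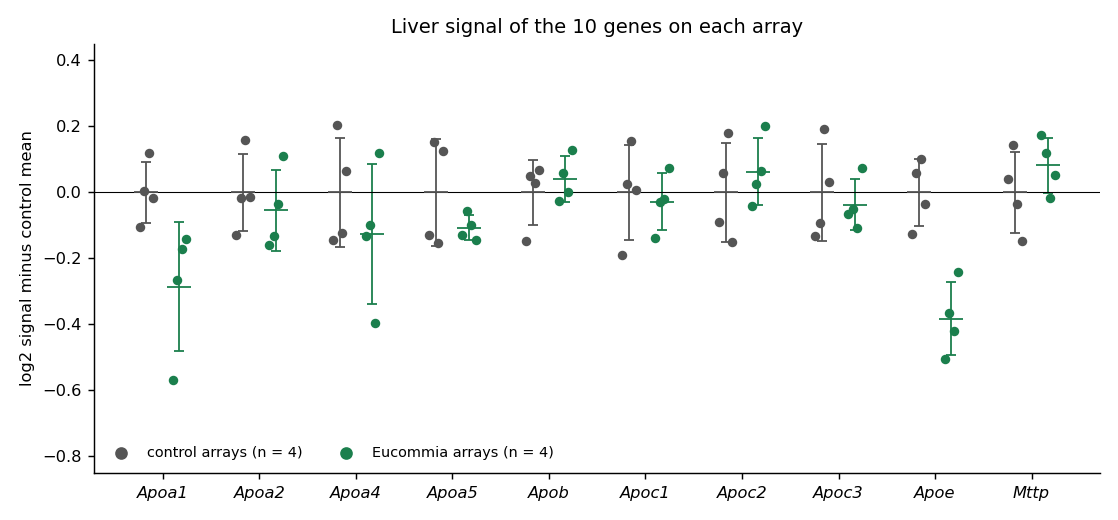
Log2 signal of each gene's brightest probe on each array, minus that gene's mean over the control arrays; points are arrays, long ticks are group means and bars are the SD of 4 arrays. The Eucommia arrays of Apoe and Apoa1 all lie below the control arrays, while those of the other 8 genes overlap with them.

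**Figure D2:**
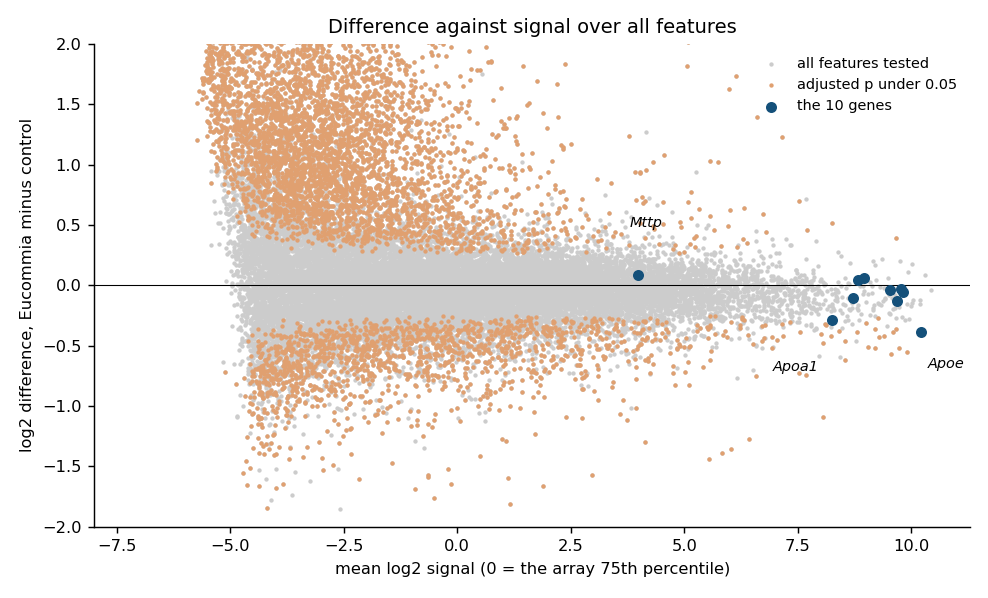
Log2 difference (Eucommia minus control) against mean log2 signal for the 25128 features, with those at an adjusted p under 0.05 in orange and the 10 genes in blue; 774 features lie beyond the plotted range of the vertical axis. Of the 10 genes, 9 sit at the bright end of the plot, above 8, and Mttp sits at 3.98. Apoe is the farthest of the 10 below 0.

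On the control arrays the log2 signal of Apoe was 10.28, 10.47, 10.51 and 10.37, and on the Eucommia arrays 9.90, 10.04, 9.99 and 10.17. Every Eucommia array was below every control array. The means were 10.41 ± 0.10 and 10.03 ± 0.11 (SD, n = 4), a log2 difference of -0.38 ± 0.10 (SE, adjusted p = 0.0184 by limma), or -23.3% with a 95% interval of -34.1 to -10.8%. In scanner units the control arrays ran from 299898 to 318752 and the Eucommia arrays from 211521 to 231895. Apoe ranked 3 from the top in signal among all features, and its difference ranked 128 from the bottom among the 2118 bright features. In whole liver, fewer cells of a type and less RNA per cell cannot be told apart.

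The direction held in all 20 other settings, from -0.64 with median centring to -0.21 with normexp background correction and quantile normalization. Not all of these could turn it. Apoe has a single probe, above background on all 8 arrays, and the series table holds the same values. The series table, other filters, probe rules and variance models, and the replicate block therefore left its value at -0.38. The call held in 15 of the 20 settings, and the series table could not change it. Of the 8 fits that left 1 array out, 4 kept it; it was lost without control replicate 3 (adjusted p = 0.0505) and without Eucommia replicate 1 (0.0612), 2 (0.0548) or 3 (0.0577), with log2 differences of -0.43 to -0.34 over the 8 fits.

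Macrophages also make Apoe, so their markers are given beside it. The 12 Kupffer cell and macrophage markers tested were all above background on every array and all had negative differences, with a median of -0.48. Over all features 47.6% had a negative difference. By limma 0 of the 12 markers passed in either direction (24.6% of all features did). At an unadjusted p under 0.05, 2 were lower and 0 higher, where 35.8% of all features were below 0.05 in either direction. The summed signal of the 12 (in multiples of each array's 75th percentile) was 135 to 237 on control and 108 to 208 on Eucommia arrays, ranges that overlap. The 12 hepatocyte markers had a median of -0.18, and 10 of the 12 were negative. By limma 1 was lower (6.24% of all features were) and 0 higher (18.4% were). At an unadjusted p under 0.05, 3 were lower and 0 higher, beside the same 35.8%. Most of these markers had a signal above 8, where 15% of features were lower and 81% had a negative difference. The summed signal of the hepatocyte markers was 7619 to 8826 on control and 6787 to 8024 on Eucommia arrays. Transferrin (Tf), the hepatocyte marker that passed as lower, had -0.55 ± 0.11 (SE). The part of either cell type in the Apoe result was not tested.

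A comparison within each array takes out any shift common to the whole array. It does not take out a shift that varies with signal, and Apoe is the brightest of the 10. The median difference was -0.13 for features above 8 and -0.04 for those from 4 to 6. The part of such a shift in the Apoe value was not tested. Against the median of the other 9 genes on the same array, Apoe stood at 1.46 ± 0.03 on the control arrays (1.42 to 1.49) and at 1.05 ± 0.04 on the Eucommia arrays (1.01 to 1.1; SD, n = 4). The difference was -0.41, and the SDs were smaller than those of the signals themselves. Control replicate 1 was below its group mean at 9 of the 10 genes and Eucommia replicate 1 at 9, while Eucommia replicate 4 was above it at 8. Part of the spread between arrays was thus common to the 10 genes, but it was not particular to them. The median deviation of bright features from the group mean was -0.06 on control replicate 1. It was -0.05 on Eucommia replicate 1 and 0.13 on Eucommia replicate 4. Against the median of the other 9 genes Apoa2 also separated, at 0.84 to 0.92 on control and 0.76 to 0.83 on Eucommia arrays. The difference was -0.08, and the other 8 genes overlapped. Set against the median of the 10 genes in the same way, 26.9% of all other features and 31.2% of the other features above 8 did not overlap between the groups.

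**Figure D3:**
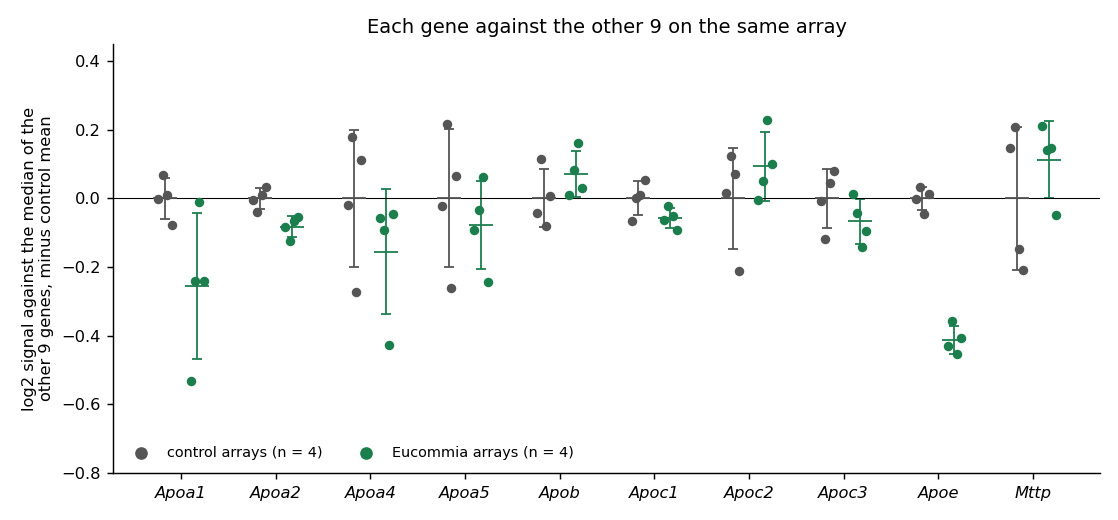
Log2 signal of each gene minus the median of the other 9 genes on the same array, with each gene's control mean set to 0; points are arrays, long ticks are group means and bars are the SD of 4 arrays. For Apoe the arrays of each group lie close together and the groups are 0.41 apart, and for Apoa2 they are 0.08 apart.

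In the rat genome (RefSeq, assembly GRCr8) Apoe lies beside Apoc1 on chromosome 1, followed by Apoc4 and Apoc2. Apoc1 encodes a small protein that inhibits lipases and receptor binding, and Apoc2 encodes the cofactor that lipoprotein lipase needs. Neither passed the test. Apoc1 was at 9.60 to 9.95 on control and 9.65 to 9.87 on Eucommia arrays, a log2 difference of -0.03 ± 0.10 (SE, adjusted p = 0.871 by limma; 95% interval -16.3 to 14.9%). Apoc2 was at 8.76 to 9.10 and 8.87 to 9.11, a difference of 0.06 ± 0.10 (adjusted p = 0.713; -11.4 to 23.2%). Taken on the same array, Apoc1 minus Apoe was 0.35 higher and Apoc2 minus Apoe 0.45 higher in the Eucommia group. Neither overlapped between the groups. Of the 9 such differences between Apoe and another member, 6 did not overlap (12 of all 45 pairs). All 9 reuse the Apoe values, whose groups did not overlap to begin with, so the 6 are not separate results. Against the median of the 10 genes on the same array, 26.9% of all other features did not overlap, and 31.2% of those above 8. Apoc4, named here for its position, had 0.09 ± 0.12 (adjusted p = 0.671). The direction of Apoc1 turned with the scaling: it was -0.29 with median centring and 0.21 with normexp and quantile normalization, and it passed with opposite signs in these settings (adjusted p = 0.0405 and 0.00760).

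RefSeq's promoter table for GRCr8 matched 5 of the 10 genes. It held 3 starts for Apoe, 2 each for Apoc1 and Apoa5, and 1 each for Apoc2 and Apoa4. Motifs were sought before the outermost start only, and which start the liver uses was not tested. The 250 bases before the outermost start are shown for the neighbouring genes of chromosome 1, since Apoe differed there and the others did not pass. Capitals mark matches, on either strand, to a TATA box (TATAAA), a nuclear receptor half-site (AGGTCA or GGGTCA) or a GC box (GGGCGG).
Apoe, chr1:88485817-88486066, minus strand: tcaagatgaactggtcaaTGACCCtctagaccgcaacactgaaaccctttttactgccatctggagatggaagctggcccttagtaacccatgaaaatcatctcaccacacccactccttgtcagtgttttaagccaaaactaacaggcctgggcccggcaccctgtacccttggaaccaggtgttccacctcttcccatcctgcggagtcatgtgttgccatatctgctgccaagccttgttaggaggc
Apoc1, chr1:88478306-88478555, minus strand: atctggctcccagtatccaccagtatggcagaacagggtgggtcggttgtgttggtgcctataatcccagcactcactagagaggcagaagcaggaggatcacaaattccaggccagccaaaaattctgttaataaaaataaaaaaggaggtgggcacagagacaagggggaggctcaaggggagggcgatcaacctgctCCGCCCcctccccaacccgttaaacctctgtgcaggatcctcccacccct
Apoc2, chr1:88462366-88462615, minus strand: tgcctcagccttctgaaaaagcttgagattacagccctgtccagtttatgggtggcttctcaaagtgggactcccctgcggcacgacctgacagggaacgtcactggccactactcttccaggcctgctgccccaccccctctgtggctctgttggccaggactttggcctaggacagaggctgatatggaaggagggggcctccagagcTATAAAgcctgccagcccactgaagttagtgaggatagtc
The Apoe window held a half-site on the reverse strand, 232 to 227 bases before the start, and neither of the other motifs. The Apoc1 window held a GC box on the reverse strand at 50 to 45 bases, and the Apoc2 window a TATA box at 40 to 35 bases. Of 27457 rat promoters cut the same way, 23.5% held a half-site, 32.4% a GC box and 13.1% a TATA box, so each of these matches is common. The forkhead core (TGTTTAC or TATTTAC, 6.21% of promoters) was in none of the windows of Apoe, Apoc1, Apoc2, Apoa4 and Apoa5. No match overlapped another. These are matches of letters, and nothing about binding was measured.

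A second cluster, on chromosome 8, holds Apoa1, Apoc3, Apoa4 and Apoa5 side by side. Apoa1 encodes the main protein of high density lipoprotein and the activator of the enzyme that esterifies its cholesterol. Its log2 signal was 8.29, 8.40, 8.52 and 8.38 on the control arrays and 7.83, 8.14, 8.23 and 8.26 on the Eucommia arrays. All Eucommia arrays were below all control arrays, and Eucommia replicate 1 was the lowest. Of the 10 genes, 2 (Apoa1 and Apoe) had groups that did not overlap, where 28.6% of all features, 13.9% of those at least as bright as Mttp and 21.6% of those above 8 did not. The difference of Apoa1 was -0.29 ± 0.12 (SE) and did not pass (adjusted p = 0.110 by limma). Its 95% interval was -31.6 to -1.60%. The value was negative in all 20 other settings, from -0.55 with median centring, where it passed (adjusted p = 0.00755), to -0.04 with normexp and quantile normalization. As for Apoe, not every setting could turn its sign. Without Eucommia replicate 1 the difference was -0.19.

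The 3 genes next to Apoa1 overlapped between the groups. Apoc3, which encodes an inhibitor of lipoprotein lipase and of remnant uptake, was at 9.42 to 9.74 on control and 9.44 to 9.62 on Eucommia arrays (-0.04 ± 0.10, SE; adjusted p = 0.826 by limma). By its other probe it was at 8.77 to 9.31 and 8.78 to 9.02 (-0.19 ± 0.13; adjusted p = 0.341). Apoa4 encodes a protein made in liver and intestine and secreted with newly formed particles. By brightest probes, its SD within each group was the largest of the 4 (0.165 on control and 0.212 on Eucommia arrays). The control SD of the other Apoc3 probe was larger, at 0.239. The control arrays of Apoa4 ran from 9.61 to 9.96 and the Eucommia arrays from 9.36 to 9.88 (-0.13 ± 0.13; adjusted p = 0.546; 95% interval -25.7 to 13%). Apoa5, whose product aids lipoprotein lipase at the vessel wall, was at 8.62 to 8.93 and 8.63 to 8.72 (-0.11 ± 0.10; adjusted p = 0.496; -20.7 to 8.79%). Its SD was 0.16 on the control and 0.04 on the Eucommia arrays. The Apoa5 promoter window held a TATA box at 30 to 25 bases and a half-site at 103 to 98 bases before the start, and that of Apoa4 a half-site at 125 to 120 and a GC box at 194 to 189 bases.

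Apoa2, on chromosome 13 apart from both clusters, encodes the second protein of high density lipoprotein. It was at 9.70 to 9.99 on control and 9.67 to 9.94 on Eucommia arrays, a log2 difference of -0.05 ± 0.10 (SE, adjusted p = 0.748 by limma; 95% interval -17.9 to 13%). Apoa4 and Apob are also transcribed in the intestine, and of 6 enterocyte markers on the array only Fabp2 and Cdx2 were above background on all 8 arrays, Vil1 was on 3, Slc5a1 and Reg3g on 1 each and Alpi on 0. The summed signal of Fabp2 and Cdx2 was 1.62 to 2.87 on control and 2.38 to 3.64 on Eucommia arrays, and neither passed.

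Apob and Mttp carry out the assembly itself, and neither passed by its brightest probe. Apob was at 8.65, 8.84, 8.82 and 8.86 on the control arrays and at 8.77, 8.85, 8.80 and 8.92 on the Eucommia arrays. The groups overlapped, with a log2 difference of 0.04 ± 0.09 (SE, adjusted p = 0.781 by limma) and a 95% interval of -10.5 to 18.3%. Mttp was at 3.98, 4.09, 3.91 and 3.80 and at 4.12, 4.06, 3.93 and 3.99, which also overlap (0.08 ± 0.10; adjusted p = 0.585; -8.89 to 23.0%). By its dimmer probe Mttp had -0.15 ± 0.18 (adjusted p = 0.604), with Eucommia replicate 4 the lowest array at -0.54.

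The 5 probes of Apob gave log2 differences from -0.48 to 0.04. They share 1 accession, but their signals ranged from 94102 to 110922 scanner units at the brightest and from 332 to 604 at the dimmest. The dimmest, A_44_P402339, was at 1.24, 1.35, 1.39 and 1.18 on the control arrays and at 0.98, 0.86, 0.65 and 0.77 on the Eucommia arrays. All Eucommia arrays were below all control arrays, and the difference of -0.48 ± 0.10 (SE) passed with each probe tested on its own (adjusted p = 0.00848 by limma; 23.8% of 27724 probes passed). It was negative and passed in all 17 other settings run for it, from -0.74 to -0.37. The other 3 probes had -0.39 ± 0.16 (A_44_P219789, adjusted p = 0.116), -0.29 ± 0.11 (A_44_P553791, 0.104) and -0.13 ± 0.10 (A_44_P402346, 0.402). With the mean over its probes, Apob was at -0.25 (adjusted p = 0.0627), on the other side of 0 from its brightest probe.

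Taken against the brightest Apob probe on the same array, A_44_P402339 differed by -0.52 between the groups and A_44_P219789 by -0.44, both with no overlap. A_44_P553791 and A_44_P402346 differed by -0.33 and -0.17, with overlap. Set against another within-array reference, the median of the 10 genes, 26.9% of all other features did not overlap. That share is for other features and not for probes of the same gene, so it cannot show whether 2 of 4 is unusual. This was not tested, and the 2 of 4 is not read as a result. The files used here give no sequence or position for the probes, so which stretch of the transcript each reads was not analysed here.

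**Figure D4:**
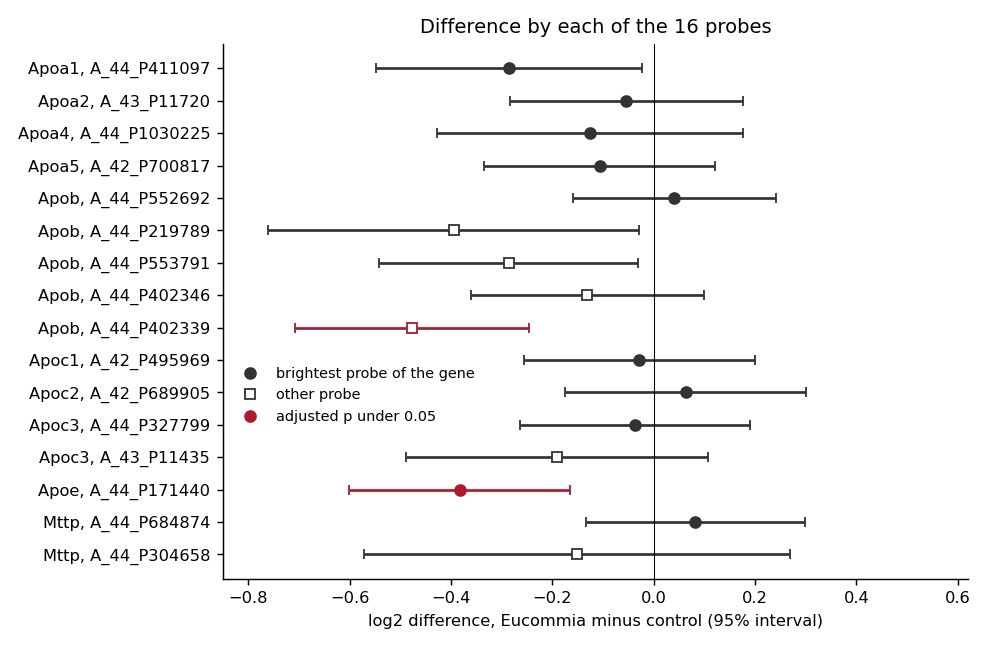
Log2 difference (Eucommia minus control) of each of the 16 probes with its 95% interval from the fit; circles are the brightest probe of a gene, squares its other probes, and red marks an adjusted p under 0.05. Apoe and the dimmest Apob probe pass, and the 4 dimmer Apob probes lie left of the brightest.

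Of 25 tested partners of lipoprotein assembly and secretion, 1 was lower by limma (6.24% of all features were) and 0 were higher (18.4% were). At an unadjusted p under 0.05, 8 were lower and 0 higher, where 35.8% of all features were below 0.05 in either direction. The partners had a median log2 difference of -0.16. Of the 25, 21 were negative, where 47.6% of all features and 62.1% of those at least as bright as Mttp were. The lower one was A1cf, the cofactor of the enzyme that edits Apob messenger RNA to encode the shorter protein form. A1cf averaged -0.42 ± 0.06 in the control group and -0.94 ± 0.08 in the Eucommia group (SD, n = 4), a difference of -0.52 ± 0.08 (SE, adjusted p = 0.00157), and it passed in all 20 other settings. The editing enzyme itself, Apobec1, named after its value was seen, had -0.43 ± 0.15 and did not pass (adjusted p = 0.0674). P4hb, the disulfide isomerase that forms the active transfer complex with Mttp and is named for that role, had -0.12 ± 0.09 (adjusted p = 0.374).

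Of 8 other apolipoprotein genes tested, 1 was higher (18.4% of all features were) and 0 were lower (6.24% were). The unadjusted counts were 1 and 0, and the median was -0.07. Apod, a lipocalin not made mainly in liver, had 0.98 ± 0.31 (SE, adjusted p = 0.0473 by limma). Only 1 of its control spots (and 4 of its Eucommia spots) stood above background, so the size rests on values near the floor. Apod thus entered the test only through the Eucommia group, where it was high, and the count of 1 is not read as a result. It passed in 9 of 19 other settings. Of the leave-one-out fits, 6 lost it (adjusted p = 0.0618 to 0.127 by limma). It was kept without control replicate 1 or 4, with log2 differences of 0.65 and 1.20. Apoh, Apom and Clu were among the 7 that did not pass.

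Among the genes of high density lipoprotein formation, remodelling and clearance, 1 was higher by limma (18.4% of all features were). Gpihbp1, which anchors lipoprotein lipase to capillaries, had 1.04 ± 0.23 (adjusted p = 0.00899). Only 2 of its control spots (and 4 of its Eucommia spots) stood above background. It thus reached the 4 arrays of the filter only through the Eucommia group, and the count of 1 is not read as a result. With normexp and quantile normalization it was 0.25. Of the features at a mean log2 signal of -2 or below, 32.4% were higher, which is the range of Apod and Gpihbp1.

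Of 26 regulators of apolipoprotein genes, 1 was higher (18.4% of all features were) and 1 lower (6.24% were), with a median of -0.04. Nr1h4, the bile acid receptor, had 0.39 ± 0.10 (SE, adjusted p = 0.0169 by limma) and passed in 17 of 20 other settings. It was lost with median centring (0.13, adjusted p = 0.343) and without Eucommia replicate 1 (0.0569). Foxa2, a forkhead factor of hepatocytes, had -0.65 ± 0.18 (adjusted p = 0.0264) and passed in 15 of 20. It was lost without control replicate 1 and without Eucommia replicate 2, 3 or 4 (0.0570 to 0.0781). Hnf4a, the nuclear receptor on which many apolipoprotein genes depend, named for that role, had -0.12 ± 0.10 and did not pass (adjusted p = 0.450).

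The genes whose pattern over the 8 arrays was most like that of Apoe were sought among 9959 other named genes, by the root mean square difference after each gene's own mean was taken off. They were Mug1, a plasma protease inhibitor (0.03), Rpn2, a subunit of the enzyme that attaches sugars to new secretory proteins (0.04), and Ufc1, the conjugating enzyme of the UFM1 modifier (0.04). Their log2 differences were -0.39, -0.36 and -0.40, each past the threshold (adjusted p = 0.0168, 0.0140 and 0.0149 by limma), as follows from a pattern like that of Apoe. Within the 10 genes the pattern nearest to that of Apoe was that of Apoa1 (0.095), and the closest pair was Apoa2 and Apoc1 (0.047).

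**Figure D5:**
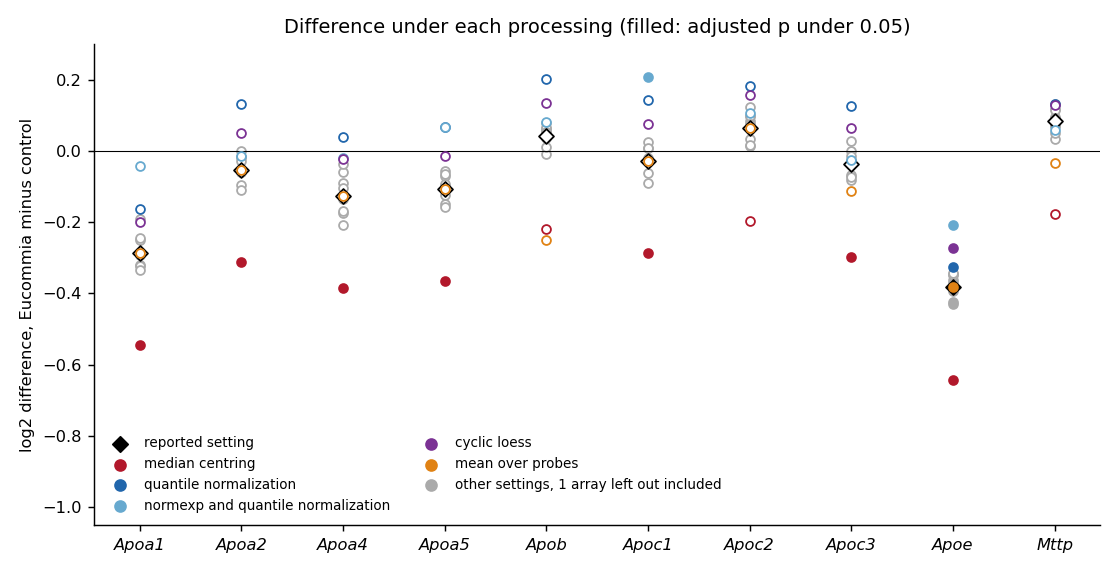
Log2 difference (Eucommia minus control) of each of the 10 genes under the reported setting (diamonds) and 20 others (circles), filled where the adjusted p is under 0.05. Apoe lies below 0 in every setting, median centring moves all 10 genes down, and for Apob the mean over probes lies below 0 while the reported value lies above it.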

How the data were processed

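The deposited scanner files hold intensity values of 8 Agilent 1-colour (Cy3) arrays read out by Agilent's Feature Extraction software (version 10.1.1.1 in the deposited headers), from 500 ng of RNA each, per the labels' protocols. The processed signal is background-subtracted and detrended within an array, per the file headers, and not normalized between arrays. Flags of another kind in the same deposited files mark control, outlier, saturated and well-above-background spots. The deposited series table had the same values at 100% of 43379 spots.

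Signals were put on the log2 scale, each array's 75th percentile was subtracted, and outlier spots were left out. Probes well above background on at least 4 arrays were kept (27724 of 41012). RefSeq accessions (GRCr8) named 16336 probes. The array headers give another build, so no gene coordinates are given beyond the promoters. A gene is its brightest probe. The comparison used limma 3.58.1 (R 4.3.3), 2-sided, with Benjamini-Hochberg adjustment over all features and a threshold of 0.05. The test was checked on simulated data with 25128 features, of which 24928 were left unchanged. It called 68% of those changed by a log2 value of 1, 78% by -1 and 26% by 0.5. Of the real features 24.6% passed, a larger share than was changed in the simulation, so these rates need not hold for the real comparison. The number of arrays limits the precision.

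Besides the 10 genes, those named are list members past the threshold (up to 6 a list) and the 3 most like Apoe. All others, cell type markers included, were named for their role or after their values were seen. The members and lists were chosen with earlier results of these data known. Alternatives were other scalings, background correction, filters, probe rules, variance models, the replicate block and each array left out. Cyclic loess was added after seeing the data. The counts of the list of high density lipoprotein formation, remodelling and clearance are not reported here in full.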

Additional observations from a re-analysis of the deposited data

How the results depend on the processing

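Over the 10 genes and 20 other settings, 169 of 200 values kept their direction and their side of the threshold. Not all 200 could change. The series table holds the same values, and other filters, variance models and the replicate block leave the log2 differences of the 10 genes as they are. The counts of settings given for other genes also include the series table. With the replicate block, 0 genes were lower (Apoe -0.38, adjusted p = 0.0580 by limma) and 1000 features were. Nr1h4 and Foxa2 did not pass with this block either (adjusted p = 0.0596 and 0.0560). The replicate numbers did not pair the arrays: same-numbered arrays correlated at -0.10 to -0.03 in their deviations and none was best matched with its own number. Leaving 1 array out gave 0 to 1 lower and 0 higher of the 10 genes, 2521 to 4598 higher and 800 to 1315 lower features, and log2 differences of -0.43 to -0.34 for Apoe, -0.0079 to 0.064 for Apob, -0.092 to 0.024 for Apoc1, -0.082 to 0.026 for Apoc3 and -0.24 to 0.0059 for the dimmer Mttp probe. Fits without a Eucommia array tested fewer features, as the filter still asked for 4 arrays.

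Median centring moved the median of all features from 0.02 to -0.24 and made 7 of the 10 genes and 8043 features lower. The values that newly passed were Apoa1 -0.55, Apoa2 -0.31, Apoa4 -0.39, Apoa5 -0.37, Apoc1 -0.29 and Apoc3 -0.30, and those that turned without passing were Apob -0.22, Apoc2 -0.20 and Mttp -0.18. The split of called features was 74.6% higher in the reported setting and 31.9% with median centring, 58.8% with quantile normalization, 59.7% with normexp, 61.7% with cyclic loess, 42.1% without the filter and 62.4% with probes above background on all arrays.

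Quantile normalization turned Apoa2 (0.13), Apoa4 (0.040), Apoa5 (0.066), Apoc1 (0.14) and Apoc3 (0.13), none past the threshold, with 2926 features lower. Normexp with quantile normalization turned Apoa5 (0.066) and Apoc1 (0.21), the latter past the threshold, so that 1 of the 10 was higher, with 2690 features lower. Cyclic loess turned Apoa2 (0.050), Apoc1 (0.075) and Apoc3 (0.063), with 2524 features lower. Taking the percentile over well-measured probes alone turned Apoc1 (0.0077), and the mean over probes turned Apob (-0.25) and Mttp (-0.035). Without the filter on dim probes 7410 features were lower, and with probes above background on all arrays 2323 were higher. The cause of these changes was not tested. A slide block could not be fitted, since each slide holds 1 group.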

Other observations

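Other cell type markers moved in the same samples. All 8 stellate cell markers tested were above background on all 8 arrays, and 1 of them, Col1a1, was higher (0.83 ± 0.16, SE, on the log2 scale) and 0 were lower. Over all features 18.4% were higher and 6.24% lower. Of 8 sinusoidal endothelial markers tested, Cdh5 was higher (1.01 ± 0.09) and Fcgr2b lower (-0.45 ± 0.11), both above background on all 8 arrays, while Pecam1 was above background on 0 control and 4 Eucommia arrays. Of 6 cholangiocyte markers tested, Epcam was lower (-0.52 ± 0.13). Cftr passed as higher, but it was above background on 0 control and 4 Eucommia arrays and so entered the test only through the group where it was high. Of 10 pancreatic acinar markers on the array, 3 (Cpa1, Cela1 and Prss1) were too dim to be tested. Ctrb1 (1.79 ± 0.15), Cela2a (1.11 ± 0.10) and Cel (0.62 ± 0.12) were above background on all 8 arrays and higher. Cpb1 (-0.21 ± 0.30) and Amy2a3 (-0.16 ± 0.18) were also above background on all 8 arrays, had negative differences and did not pass. Serpini2 also passed as higher, with 0 control and 4 Eucommia arrays above background, and Pnlip did not pass, with 1 and 4. These entered the test only through the Eucommia group, so no count or median over the acinar markers is given. The part of these cells in the values of the 10 genes was not tested. None of the 20 groups of 4 arrays behind the 10 genes held an array beyond Dixon's 95% critical value.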
